A study of Sus scrofa with 4 samples.

Results

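Messenger RNA of 3 acute-phase genes, *SAA3*, *HP* and *ITIH4*, was measured in the ileum, the last stretch of the small intestine, of piglets that had gained little or much weight. The 3 genes were chosen from a low-gain against high-gain comparison of these same arrays, so their differences between the groups are given here as a description and carry no test. They are 3 of the 2389 genes that could be named on the array, and 13 of its 43603 probes read them: 5 probes for *SAA3*, 5 for *HP* and 3 for *ITIH4*. A probe was assigned to a gene when the RefSeq transcript in its annotation belongs to that gene in the NCBI table for Sscrofa11.1 (NM_001044552 for *SAA3*, NM_214000 for *HP* and NM_001001537 for *ITIH4*).

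All piglets were 16 days old, were suckled by their dams and came from Yorkshire × Landrace sows mated to Duroc boars. The low-gain group has 2 arrays, a and b, each hybridised with ileum RNA pooled from 2 piglets. The high-gain group has 2 arrays, a and b, each hybridised with ileum RNA pooled from 3 piglets. The series' design text describes the groups by weight at birth rather than by gain, and the sample labels were followed. Nothing in the labels tells whether a and b were 2 pools or 1 pool hybridised again. Errors and p-values below therefore measure only the spread between 2 arrays, possibly technical spread, and say nothing of how piglets vary. In limma the spread of each probe is also drawn towards that of all tested probes. Slices of whole ileum wall mix many cell types, so fewer cells of a type and less RNA per cell cannot be told apart.

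The acute phase is the rapid change in secreted proteins that follows infection or tissue injury. Macrophages and other cells release interleukin 6, interleukin 1 and tumour necrosis factor, and these cytokines act through STAT3, NF-kB and C/EBP transcription factors on liver cells, the main source of the plasma proteins. *SAA3* encodes a serum amyloid A protein of a kind made outside the liver as well, including in gut epithelium, macrophages and fat. *HP* encodes haptoglobin, which captures free haemoglobin and delivers it to the macrophage receptor CD163. *ITIH4* encodes an inter-alpha-trypsin inhibitor heavy chain known in pigs as the major acute-phase protein, pig-MAP.

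*SAA3* lay lower in low gain, by 3.52-fold to 3.84-fold depending on the probe, while *HP* lay higher in low gain on each of its 5 probes, by 1.75-fold to 2.67-fold. *ITIH4* was higher in low gain on 2 of 3 probes, by 2.98-fold and 2.55-fold, and differed by 1.12-fold on the third. The 3 acute-phase genes therefore did not all lie on the same side. The closeness of the probes to each other also differed, being greatest for *SAA3* and least for *ITIH4*.

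All 13 probes lay well above background, by the scanner software's flag, on all 4 arrays, and none was saturated or flagged as an outlier. The arrays shared 1 slide. Of 43803 non-control spots, between 32835 and 33972 lay well above background on an array, and the lowest signal well above background was 5.52 to 6.72 intensity units. The scanner software's own error for a spot ran from 10% to 16.7% of the signal over the 13 probes. Repeat spots varied most on low-gain array a, where their median coefficient of variation was 9.04%, against 5.72% to 6.12% on the other 3 arrays. Of the 26 differences between arrays a and b of a group, 21 were within the combined software error of the 2 spots.

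Signals are given below as processed intensity, on a linear scale, and then as log2 of that intensity minus the 75th percentile of log2 intensity on the array, which removes the overall brightness of an array. That percentile was 410.8 (array a) and 464.8 units (array b) in low gain, and 482.8 (a) and 470.8 units (b) in high gain. A value of 0 thus means a spot as bright as the 75th percentile spot. Probes differ in how strongly they bind, so the level of one probe cannot be set against that of another, and only differences between arrays were compared. Each difference is low gain minus high gain, with the standard error (SE) of a limma fit across all probes, from 2 arrays per group.

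**Figure D1:**
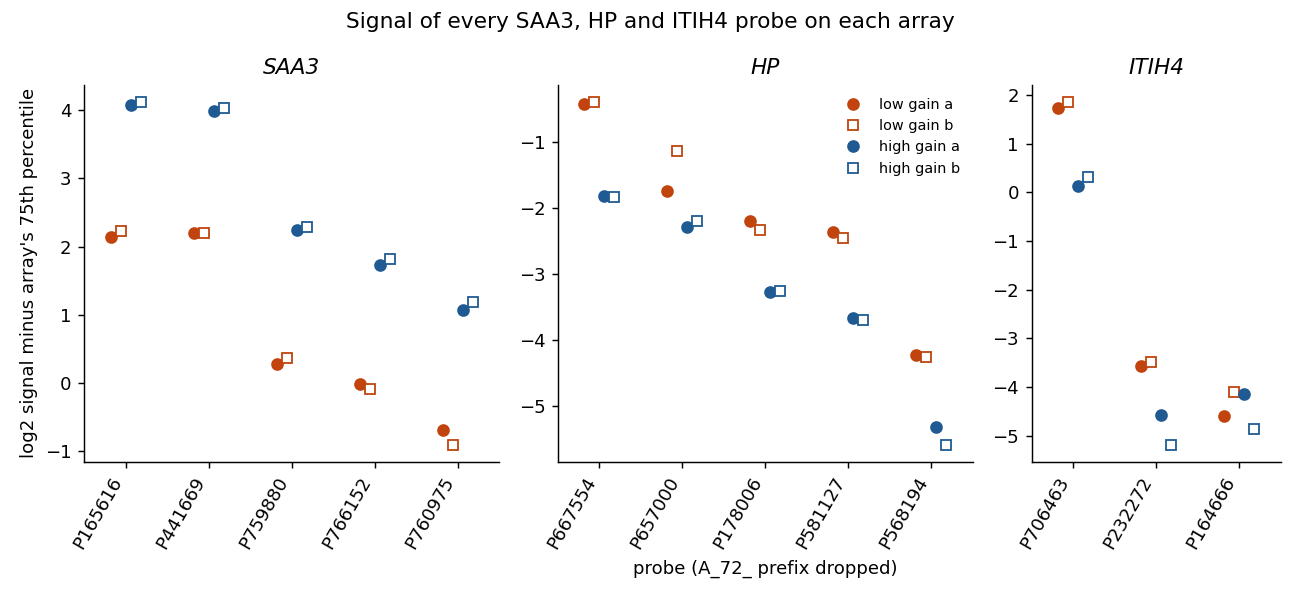
Normalised log2 signal (vertical axis, log2 intensity minus the 75th percentile of the array; each panel has its own scale) of every probe of *SAA3*, *HP* and *ITIH4* on low-gain (red) and high-gain (blue) arrays a (filled circles) and b (open squares). Low-gain points lie below high-gain points on all 5 *SAA3* probes and above them on all 5 *HP* probes and 2 *ITIH4* probes, and the groups overlap on the *ITIH4* probe A_72_P164666.

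*SAA3* signal on probe A_72_P165616 was 1819 and 2173 units on arrays a and b of low gain and 8171 and 8183 units on those of high gain. Readings below keep this order, a before b. After scaling these were 2.15, 2.22, 4.08 and 4.12. Both low-gain arrays were far below both high-gain arrays, and the arrays of a group were close, with SDs of 0.06 (low gain) and 0.03 (high gain). The difference was -1.91 ± 0.10 (SE, n = 2 arrays per group), or 3.77-fold lower in low gain. On probe A_72_P441669 the scaled values were 2.20 and 2.20 in low gain and 3.995 and 4.036 in high gain, a difference of -1.81 ± 0.10 (SE). The low-gain arrays gave almost the same value there, with an SD of 0.0021.

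The other 3 *SAA3* probes gave the same picture at lower signal. Probe A_72_P759880 read 0.28 and 0.37 in low gain and 2.25 and 2.29 in high gain, a difference of -1.94 ± 0.10 (SE). Probe A_72_P766152 read -0.02 and -0.09 in low gain and 1.73 and 1.82 in high gain, a difference of -1.83 ± 0.10 (SE). Probe A_72_P760975 was the dimmest, with 254 and 248 units in low gain and 1018 and 1071 units in high gain. Its scaled values of -0.69, -0.90, 1.08 and 1.19 gave a difference of -1.93 ± 0.13 (SE). Over the 20 combinations of a probe, a low-gain array and a high-gain array, the *SAA3* difference ran from -2.09 to -1.75. Such combinations share arrays and a gene chosen on this contrast, so they are not independent and only describe the spread.

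High-gain array b read above high-gain array a on all 5 *SAA3* probes, by at most 0.11, while low-gain array b read above low-gain array a on 2 of 5 and differed from it by at most 0.21. These gaps within a group were small beside the gap between groups. Without the scaling, the ratio of mean signals was 3.83-fold to 4.18-fold over the 5 probes. In the NCBI table, *SAA3* neighbours other serum amyloid genes, *SAA2* and *SAA4*, which no probe was named for here. Transcripts of related serum amyloid genes can bind the same probe, and the share of the signal that belongs to each was not measured.

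*HP* signal on its brightest probe, A_72_P667554, was 306 and 353 units in low gain and 137 and 132 units in high gain. The scaled values were -0.42 and -0.40 in low gain and -1.82 and -1.84 in high gain, which did not overlap. The difference was 1.42 ± 0.10 (SE), or 2.67-fold higher in low gain, and the SDs within a group were 0.02 and 0.01. Probe A_72_P581127 read -2.37 and -2.46 in low gain and -3.67 and -3.70 in high gain, a difference of 1.27 ± 0.10 (SE). Probe A_72_P178006 read -2.20 and -2.34 in low gain and -3.27 and -3.27 in high gain, a difference of 0.998 ± 0.109 (SE). On both of these probes the arrays of a group again lay close together and the groups apart.

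Low signal marked the dimmest *HP* probe, A_72_P568194, which read 21.9 and 24.2 units in low gain and 12.1 and 9.78 units in high gain. Its software error reached 16.7% on high-gain array b. The scaled values of -4.23, -4.26, -5.32 and -5.59 gave a difference of 1.21 ± 0.14 (SE), inside the range of the brighter probes.

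Probe A_72_P657000 departed from the other *HP* probes. It read 123 and 211 units on low-gain arrays a and b, or -1.74 and -1.14 after scaling, a gap of 0.60 between arrays of the same group. In high gain it read -2.30 and -2.20. Both low-gain values were still the higher ones, but its difference of 0.81 ± 0.24 (SE) was the smallest of the 5. It became 1.11 without low-gain array a and 0.51 without low-gain array b. On the other 4 *HP* probes low-gain arrays a and b differed by at most 0.15, so the gap was not shared by the gene's probes.

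**Figure D2:**
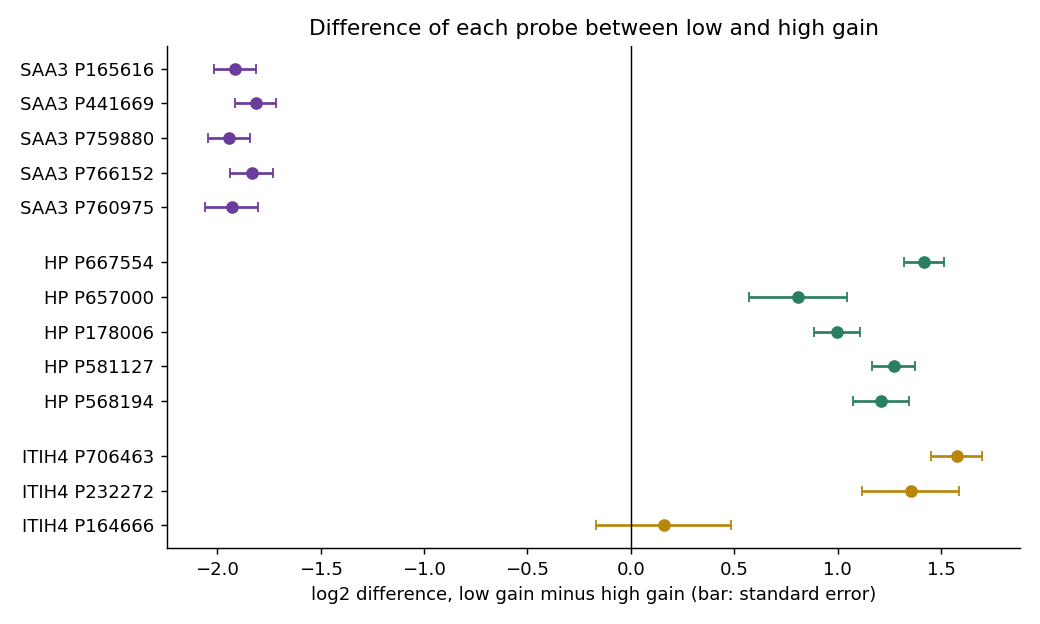
Log2 difference in scaled signal, low gain minus high gain (horizontal axis), for each of the 13 probes of *SAA3*, *HP* and *ITIH4*, with bars of 1 standard error from 2 arrays per group. The *SAA3* probes lie between -1.94 and -1.81, the *HP* probes between 0.81 and 1.42, and the *ITIH4* probes at 1.58, 1.35 and 0.16.

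*ITIH4* signal on its brightest probe, A_72_P706463, was 1371 and 1684 units in low gain and 531 and 583 units in high gain. The scaled values were 1.74 and 1.86 in low gain and 0.14 and 0.31 in high gain. Both low-gain arrays were higher, and the difference of 1.58 ± 0.12 (SE), or 2.98-fold, was many times the SDs within a group of 0.08 and 0.12. Probe A_72_P232272 was dim, with 34.4 and 41.5 units in low gain and 20.1 and 13.0 units in high gain. Its scaled values of -3.58, -3.48, -4.58 and -5.18 did not overlap between groups and gave a difference of 1.35 ± 0.23 (SE). The 2 high-gain arrays differed by 0.60 on this probe.

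The third *ITIH4* probe, A_72_P164666, did not show the difference. It read 17.0 and 27.2 units in low gain and 27.4 and 16.1 units in high gain, so the readings of the groups overlapped. The scaled values were -4.60 and -4.10 in low gain and -4.14 and -4.87 in high gain, and the difference was 0.16 ± 0.33 (SE). It turned to -0.09 without low-gain array b and to -0.21 without high-gain array b. Its arrays differed by 0.50 within low gain and 0.73 within high gain, more than on any other of the 13 probes in high gain. Its brightest reading was 27.4 units, and 11 of the 12 combinations of an *ITIH4* probe and an array of each group were higher in low gain, the exception being on this probe.

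Agreement between probes was summarised by the SD of the difference over the probes of a gene. It was 0.06 for *SAA3* over 5 probes, below the median limma SE of its probes, 0.10. Without limma's moderation, the median SE of its probes was 0.05, slightly below that SD. For *HP* it was 0.24 over 5 probes, and the differences spanned 0.61, which is 5.57 times the median SE of a probe. For *ITIH4* it was 0.76 over 3 probes, which spanned 1.42. Among the 558 named genes with at least 3 tested probes, the median SD was 0.17 and the middle of the range ran from 0.09 (lower quartile) to 0.29 (upper quartile). A smaller SD than that of *SAA3* was found for 13.1% of these genes, a smaller one than that of *HP* for 65.8% and a smaller one than that of *ITIH4* for 98.2%. The probes of a gene are not independent replicates, and where each lies on the transcript was not analysed here, so these ranks are a description.

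**Figure D3:**
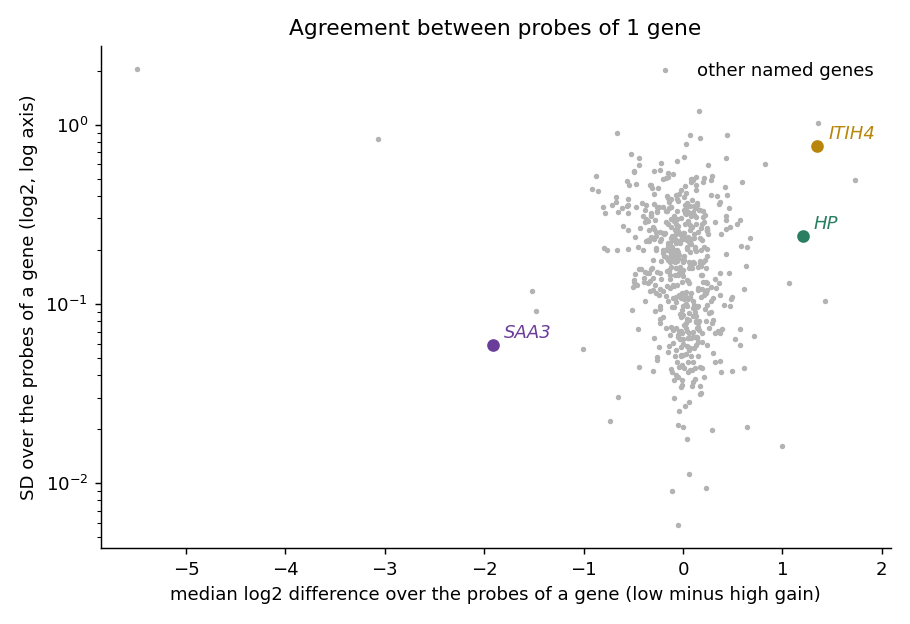
SD over the probes of a gene of the log2 difference between low and high gain (vertical axis, log scale) against the median difference over those probes (horizontal axis), for the 558 named genes with at least 3 tested probes. *SAA3* sits low at an SD of 0.06, *HP* at 0.24 and *ITIH4* near the top at 0.76.

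Of those 558 genes, 12 had a median difference of at least 1 in size, among them the 3 acute-phase genes. The 3 were chosen on this contrast, so nothing is read from their presence there. Their medians were -1.91 for *SAA3*, 1.21 for *HP* and 1.35 for *ITIH4*. Over the 12, the SD over probes ran from 0.06 to 2.05 with a median of 0.19, so *SAA3* lay near the tight end and *ITIH4* towards the loose end. Every probe had the same sign for 10 of the 12 genes, among them *SAA3*, *HP* and *ITIH4*, and for 45.9% of the 558.

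The size of the differences is set here beside all 33265 tested probes, those well above background on both arrays of at least 1 group. These shares are a description, because the genes were chosen on this contrast. A difference at least as far below 0 was found for 0.198% to 0.247% of probes at the values of the 5 *SAA3* probes. A difference at least as far above 0 was found for 0.376% to 2.37% at the values of the *HP* probes. For the 3 *ITIH4* probes these shares were 0.244%, 0.451% and 31.8%. The median difference over all tested probes was 0.02.

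Both low-gain arrays lay below both high-gain arrays on 5 of 5 *SAA3* probes, where 26.9% of all tested probes did so. Both lay above on 5 of 5 *HP* probes and 2 of 3 *ITIH4* probes, where 27.6% of all tested probes did so. At an adjusted p under 0.05 in limma, 5 of 5 *SAA3* probes were called lower, against 0.144% of tested probes, and 0 of 5 *HP* and 0 of 3 *ITIH4* probes were called higher, against 0.0962% of tested probes. At an unadjusted p under 0.05 in limma, all 5 *HP* probes and 2 of 3 *ITIH4* probes would count. Of the 33265 tested probes, 6117 would count in either direction. Because the genes were chosen on this contrast, nothing is read from these counts. No *SAA3* probe was called without low-gain array a, without low-gain array b, without high-gain array a, without high-gain array b, with the array letter as a block, with no filter on dim probes or with all 4 arrays required to clear background. The calls for *SAA3*, *HP* and *ITIH4* were 4, 0 and 0 probes with quantile normalisation, 5, 2 and 1 with median centring, and 5, 3 and 1 with normexp and with the prior variance following intensity.

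The size of the *HP* and *ITIH4* differences changed more than that of *SAA3* under normexp. That alternative changed the input signal, the background method and the offset together, and their separate parts were not tested. An added offset by itself narrows the log2 difference of a dim probe. Small normexp values below therefore cannot check the differences of dim genes. With normexp correction of the median pixel signal and an offset of 50 units, the median difference was -1.34 for *SAA3*, 0.31 for *HP* and 0.23 for *ITIH4*. When local backgrounds over 3 times the array's median were first replaced by that median, an alternative added after the data were seen, the medians were -1.86, 0.57 and 0.43. The direction was the same in both, and the brightest *ITIH4* probe was at 0.97 and 1.502. In the table deposited by the authors the medians were -1.89, 1.17 and 1.48.

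Other genes of the acute phase were read from lists of pathway genes and cell markers, 155 genes in all with those on several lists counted once, of which 96 had a named probe and 88 a tested one. Each gene was represented by its brightest tested probe. Of the 88, 1 passed the limma test over all probes, the lysozyme gene *LYZ*. For comparison, 0.232% of the 2158 named genes tested were called higher and 0.185% lower in low gain. At an unadjusted p under 0.05 in limma, 269 of the 2158 were higher and 197 lower. The unadjusted counts of the lists below are to be read beside these. With the prior variance following intensity, 112 named genes were called higher and 58 lower. Of the listed genes named below, *ANPEP*, *CDH1*, *FABP2*, *CFB* and *RETN* were then called higher. *LYZ*, *FABP4*, *HMOX1*, *CD163*, *ANGPTL4*, *NCF1* and *TF* were then called lower. The limma counts of the lists below are without that setting unless stated.

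Of the other acute-phase proteins, 34 were listed and 15 were tested. Of these, 0 passed the limma test, while 2 higher and 2 lower members had an unadjusted p under 0.05. Their median difference was -0.04, against 0.02 over all named genes, and 7 were above 0. In the authors' deposited table that median was 0.01. *SERPINA3-2*, an alpha-1-antichymotrypsin gene, had the largest difference (-1.32 ± 0.20, SE, limma adjusted p = 0.147). It read -5.56 and -5.08 in low gain and -4.05 and -3.96 in high gain. The faintest signal well above background was -5.93 on low-gain array a and -6.38 on b, so its low-gain readings were dim. Under normexp its difference was -0.22. *CFB*, the gene for complement factor B, read 5.69 and 5.83 in low gain and 4.90 and 5.02 in high gain, a difference of 0.80 ± 0.12 (SE, limma adjusted p = 0.144). These 2 genes lay on opposite sides, as *SAA3* and *HP* did.

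The relatives of *ITIH4* in the list were *ITIH1* and *ITIH2*, which encode heavy chains of the same inhibitor family. *ITIH1* differed by -0.98 ± 0.66 (SE), set by 1 reading, -1.81 on low-gain array a, beside 0.04, 0.15 and 0.04 on low-gain array b and high-gain arrays a and b. Its other probe gave 0.78. *ITIH2* differed by 0.38 ± 0.59 (SE) and turned to -0.38 without low-gain array a. The 2 *ITIH1* probes thus lay on opposite sides of 0, and the *ITIH2* readings of the groups overlapped. *SERPINA1*, the gene for alpha-1-antitrypsin, differed by 0.39 ± 0.10 (SE), with its other probe at 0.46. *ANGPTL4*, an inhibitor of lipoprotein lipase, differed by -0.52 ± 0.12 (SE), with its other probe at -1.08. *APCS*, *AMBP*, *MBL1* and *MBL2* had probes but none well above background on any array.

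Among 5 tested genes for plasma proteins that fall in the acute phase, 0 passed limma and 1 lower member had an unadjusted p under 0.05. The median was -0.24, and it was 0.08 without high-gain array a. *TF*, the gene for transferrin, differed by -0.64 ± 0.11 (SE) and *APOA1*, the gene of the main high-density lipoprotein protein, by -0.24 ± 0.12 (SE). *RBP4*, which encodes a retinol carrier, differed by 0.74 ± 0.35 (SE), but its other 2 probes gave -0.92 and -0.66. *SERPINA6*, for a cortisol carrier, differed by -0.49 ± 0.43 (SE).

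Genes for the cytokines that drive the acute phase, their receptors and transcription factors numbered 22 tested of 34 listed. Of these, 0 passed limma, while 3 higher and 4 lower members had an unadjusted p under 0.05, and the median was 0.04, or -0.02 in the authors' deposited table. *IL6* itself differed by -0.16 ± 0.13 (SE), with its other 2 probes at -0.05 and -0.04. *STAT3*, which carries the signal of interleukin 6, differed by -0.34 ± 0.16 (SE), with its other 3 probes from -0.23 to 0.20. *IL1B* differed by 0.57 ± 0.16 (SE). None of these 3 genes passed the test.

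The NF-kB subunit genes *RELA* and *NFKB1* differed by -0.73 ± 0.25 (SE) and -0.46 ± 0.16 (SE), and the other probe of *RELA* gave -0.91. *CEBPB*, whose product is a transcription factor of acute-phase promoters, did not clear background in low gain. With dim readings bounded, its signal was 1.49-fold lower there (limma adjusted p = 0.301 for the difference as measured). For that bound a dim reading was set to the faintest signal that the software still called well above background, where its own value was lower. Under normexp the *CEBPB* difference was -0.07. *IL10RB*, a shared receptor chain for interleukins 10 and 22, differed by 0.40 ± 0.12 (SE). *IL6R* differed by 0.48 ± 0.81 (SE) and turned to -0.65 without low-gain array a. None passed the limma test, with adjusted p-values from 0.224 for *IL10RB* to 0.766 for *IL6R* among these 5 genes.

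Among receptors and partners of the 3 proteins, 8 genes were tested and 0 passed limma, while 1 higher and 3 lower members had an unadjusted p under 0.05. The median was -0.08, or -0.29 with probes averaged per gene, where the median of all named genes was -0.03. *CD163*, the receptor for haptoglobin bound to haemoglobin, read lower in low gain, by -0.41 ± 0.10 (SE, limma adjusted p = 0.199), and its other 3 probes gave -0.54 to -0.39. *HMOX1*, which encodes the enzyme that degrades the haem taken up, differed by -0.54 ± 0.10 (SE, limma adjusted p = 0.176), with its other 2 probes at -1.25 and -0.39. Both lay on the side opposite to *HP*, without passing the test. *TLR2*, a receptor described for serum amyloid A, differed by 0.31 ± 0.10 (SE), and *MYD88*, its adaptor, by -1.0004 ± 0.2877 (SE).

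Markers of cell types that can express these genes were read beside them. Of 11 macrophage markers listed, 6 were tested, all 6 lay lower in low gain, and their median was -0.35. At an unadjusted p under 0.05 in limma, 0 were higher and 4 lower. The smallest of these differences was -0.07 ± 0.10 (SE), and the other probe of that gene gave 0.0021. *LYZ* passed the test (-1.52 ± 0.10, SE, limma adjusted p = 0.0467), and its call was lost on leaving out each array in turn, with the value between -1.55 and -1.49 and the adjusted p between 0.0978 and 0.520. *SIGLEC1*, a sialic acid receptor of macrophages, was clear of background on 1 of 2 arrays of low gain. With the dim reading set to the faintest signal well above background, it differed by -1.14 (-1.57 ± 0.41, SE, as measured, and -0.10 under normexp). *CD86*, a costimulatory molecule, differed by -0.28 ± 0.10 (SE). Both low-gain arrays lay below both high-gain arrays for 6 of 6 markers, where 29.2% of all named genes did so. The summed linear signal of the 6, in units of the array's 75th percentile, was 28.9 on both low-gain arrays and 43.3 and 43.9 on the high-gain arrays. Most of that gap came from *LYZ*, and the other 5 summed to 22.3 and 22.4 in low gain and 24.98 and 24.84 in high gain. Which cells of the ileum wall gave the *LYZ* signal was not tested.

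Of 12 adipocyte markers, 11 were tested and 0 passed limma, with 2 higher and 3 lower at an unadjusted p under 0.05 and a median of -0.18. *FABP4*, for a fatty acid binding protein, differed by -1.55 ± 0.12 (SE, limma adjusted p = 0.0561), and *ADIPOQ*, for adiponectin, by -0.96 ± 0.39 (SE). *PLIN1*, for a lipid droplet protein, was clear of background on 1 of 2 arrays of low gain. With its dim reading set to the faintest signal well above background, it differed by -0.80 (-1.63 ± 0.55, SE, as measured, and -0.05 under normexp). *RETN*, for resistin, went the other way, at 1.04 ± 0.10 (SE). The summed signal was 23.0 and 23.2 in low gain and 25.5 on both high-gain arrays, and without *FABP4* it was 21.9, 22.2, 22.6 and 22.2. The medians of both lists lay on the side of *SAA3*, but the macrophage median was -0.16 under normexp. The adipocyte median was -0.08 under normexp, -0.35 without low-gain array a and -0.31 without high-gain array b. The part of these cells in the *SAA3* difference was not tested.

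Intestinal epithelium markers lay on the side of *HP* and *ITIH4*. All 9 tested of 16 listed were above 0 (8 of 9 with quantile normalisation and without low-gain array b or high-gain array a), with a median of 0.44. Of these, 0 passed limma, and 7 had an unadjusted p under 0.05, all higher. With the prior variance following intensity, 4 passed, all higher. *ANPEP*, a brush-border peptidase gene, differed by 0.68 ± 0.10 (SE), *GUCA2A*, for the peptide guanylin, by 0.65 ± 0.18 (SE), *CDH1*, for E-cadherin, by 0.58 ± 0.10 (SE) and *FABP2*, for an intestinal fatty acid binding protein, by 0.48 ± 0.12 (SE). Both low-gain arrays lay above both high-gain arrays for 8 of the 9, where 32.6% of named genes did so. The summed signal was 834 and 865 in low gain and 678 and 757 in high gain. *FABP6*, the bile acid binding protein gene that marks the ileum, was well above background on all 4 arrays.

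Neutrophil markers, which bear on *HP* because haptoglobin is stored in neutrophil granules, had a median of 0.53 over 9 tested of 14 listed. That median was 0.04 under normexp and 0.16 without low-gain array a. Of the 9, 0 passed limma, with 2 higher and 1 lower at an unadjusted p under 0.05. *S100A8*, for a calgranulin, differed by 1.06 ± 0.19 (SE), *LTF*, for lactoferrin, by 0.61 ± 0.27 (SE) and *NCF1*, for an oxidase subunit, by -1.11 ± 0.23 (SE). *PR39*, a cathelicidin gene, did not clear background in high gain. Its difference was 0.70 ± 0.39 (SE) as measured and 0.04 under normexp. The summed signal went the other way, with 4.39 and 4.22 in low gain and 5.68 and 4.97 in high gain. Without *NCF1* it was 3.768 and 3.484 in low gain and 3.939 and 3.755 in high gain, so the groups overlapped.

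Liver markers were measured because the liver is the classic source of *HP* and *ITIH4*. Of 14 listed, 7 were tested and 0 passed limma, with 1 higher and 1 lower at an unadjusted p under 0.05. The median was 0.13, and it was -0.02 in the authors' deposited table and -0.08 without low-gain array a. *ALB*, the albumin gene, differed by 0.13 ± 0.22 (SE), with its other 8 probes from -0.81 to 0.42. *F2*, for prothrombin, differed by 0.55 ± 0.12 (SE), and *APOA2*, for an apolipoprotein, by -0.57 ± 0.75 (SE). *CYP2E1*, for a cytochrome P450, was clear of background on 1 of 2 arrays of high gain and differed by 0.40 ± 0.30 (SE), or 0.03 under normexp. *TTR* and *F9* were not well above background on any array. The summed signal was 12.5 and 10.3 in low gain and 12.7 and 11.0 in high gain. Without *APOA2* it was 9.80 and 9.15 in low gain and 8.13 and 9.595 in high gain. Which cells gave the signal of these markers was not tested. The part of epithelial, neutrophil and liver RNA in the *HP* and *ITIH4* differences was not tested.

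**Figure D4:**
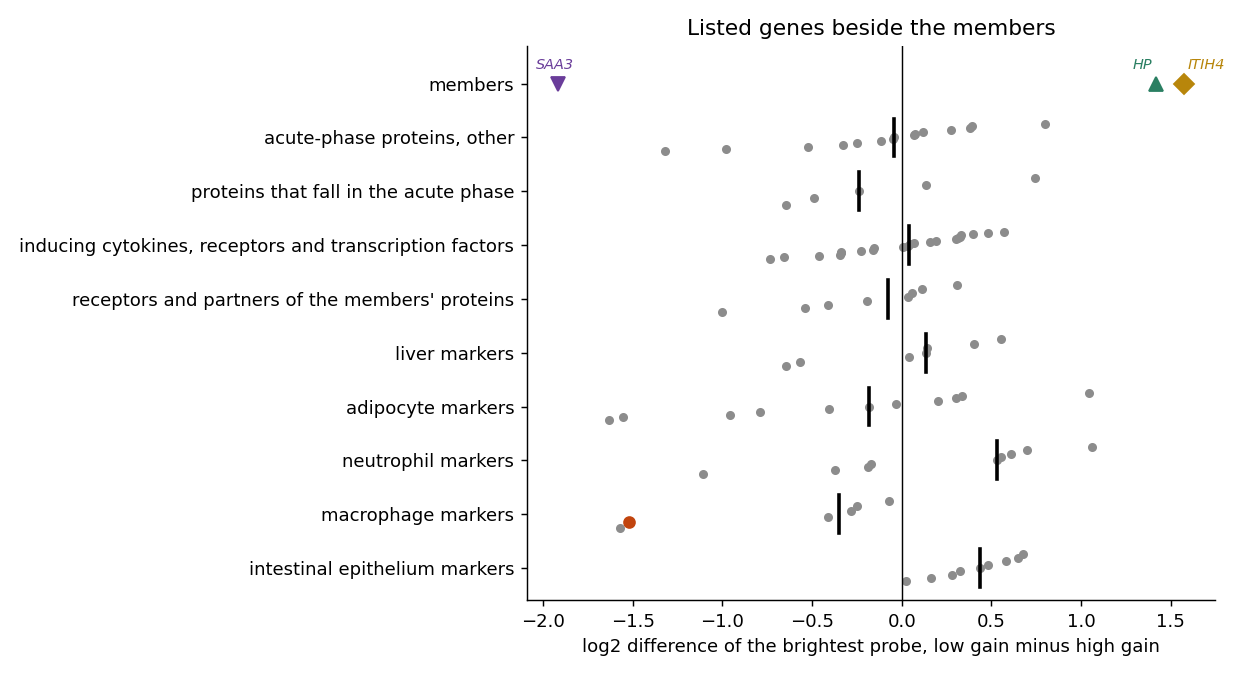
Log2 difference between low and high gain (horizontal axis) of the brightest probe of each listed gene (points), by list, with the list median as a black bar and the brightest probes of *SAA3*, *HP* and *ITIH4* on the top line. The gene past the limma test, *LYZ*, is the larger red point among the macrophage markers, and the 9 epithelium markers all lie above 0 (8 of 9 with quantile normalisation).

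The named genes whose pattern over the 4 arrays lay closest to each acute-phase gene were found by the Euclidean distance between brightest probes, each centred on its own mean. Closest to *SAA3* were *NR0B1* (distance 0.06), *FABP4* (0.37) and *LYZ* (0.40). Closest to *HP* were *ITLN2* (0.05), *GZMH* (0.15) and *CGA* (0.16), and closest to *ITIH4* were *RETNLB* (0.14), *GZMK* (0.16) and *CLCA1* (0.20). *HP* was the fourth closest gene to *ITIH4*, at 0.22. With 4 arrays the distance mostly reflects the size of the difference between the groups, so it describes likeness in these arrays alone.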

How the data were processed

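Per the file headers, the deposited scanner files hold Cy3 intensity values from Agilent Feature Extraction 10.7.3.1, with 1 array per sample. The processed signal is background-treated by that software, and the median and local background signals are pixel values. A deposited log2 table served as an alternative. How it was made is not stated in the sources used. Matched by spot number, it followed log2 processed signal with slopes of 1.005 to 1.013 over spots well above background, which gives its direction and log base, and its scaling and centring stay unknown. The medians of its columns were 5.62 and 5.59 (low gain a, b) and 5.67 and 5.60 (high gain a, b).

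Each array was scaled by subtracting, in log2 units, the 75th percentile of its non-control spots. Outlier spots were dropped and repeat spots averaged, and probes well above background on both arrays of at least 1 group were tested. Of 5779 probes with a RefSeq accession, 5461 matched the NCBI gene table. The Sscrofa11.1 table served for names and neighbouring genes only. The files do not name the build of the probe annotation, so coordinates are left out, and no probe sequence was used here. Differences, SEs and p-values came from lmFit and eBayes in limma 3.58.1 (R 4.3.3), without covariates, with Benjamini-Hochberg adjustment over 33265 probes at a threshold of 0.05. The code was tested on simulated data. The number of arrays limits the precision.

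The members, gene lists, tests and alternatives were chosen with earlier results of these data known. Named were all probes of the 3 genes, of each list the genes past the test and then the largest differences (up to 6 for the other acute-phase proteins and for the cytokine list, up to 4 elsewhere), *IL6*, *STAT3*, *CD163*, *ALB* and *FABP6* for their roles, and the 3 genes closest to each member. Genes without a well-measured probe were named after their flags were seen.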

Additional observations from a re-analysis of the deposited data

How the results depend on the processing

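The *SAA3*, *HP* and *ITIH4* medians kept their direction in every alternative run, and their largest shifts came with normexp, which changed the input signal, the background method and the offset together, so their separate parts were not tested. Under normexp the medians were -1.34, 0.31 and 0.23, and the differences spanned 0.73, 0.48 and 0.96 over the probes. With bright backgrounds replaced, which was added after the data were seen, the medians were -1.86, 0.57 and 0.43, and the spans were 0.27 for *SAA3* and 0.87 for *HP*. Leaving out 1 array gave medians of -1.93 to -1.82 for *SAA3*, 1.07 to 1.29 for *HP* and 1.05 to 1.49 for *ITIH4*, and spans of 0.13 to 0.22, 0.51 to 0.90 and 1.13 to 1.87.

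Against 80 probes past the test, there were 163 with median centring (70 higher, 93 lower), 1237 with normexp (767 higher, 470 lower), 801 with bright backgrounds replaced (506 higher, 295 lower), 1250 with the intensity trend (751 higher, 499 lower) and 12 with no filter (3 higher, 9 lower). There were 0 where all 4 arrays had to be well above background (6071 at an unadjusted p under 0.05), and 0 to 56 without 1 array. Against 1 listed gene, 2 passed with median centring, 12 with normexp, 8 with bright backgrounds replaced and 14 with the trend, and 0 with no filter, with all 4 arrays required, with probes averaged per gene and without any 1 array. The cause was not tested. With the letter as a replicate block, 0 probes and 0 listed genes passed (4703 probes at an unadjusted p under 0.05). The letters are not stated to pair arrays, and the a minus b differences of the groups correlated at -0.04 over probes.

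Signs turned for the *ITIH4* probe A_72_P164666 (-0.21 to 0.52 without 1 array), *ALB* (-0.0181 in the deposited table, -0.0336 with probes averaged, -0.14 to 0.41 without 1 array), *ITIH2* (-0.38 without low-gain array a), *IL6R* (-0.65 to 1.60), *APOA2* (-1.41 to 0.28) and *SERPINA6* (-1.06 to 0.0776) without 1 array, and *RBP4* (-0.28 with probes averaged).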
